A study of Mus musculus with 6 samples.

Results

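Sugar uptake, glycolysis and lactate export, together with the hypoxia-inducible factor (HIF) pathway that controls many of their genes, were followed in mouse macrophages given KN93. The genes came from a list of names drawn up with earlier results of these data known, with no measured value as a criterion, and comprised glucose and lactate transporters, glycolytic enzymes, HIF subunits and HIF targets. They were 35 symbols, which matched 36 of the 54446 entries of the deposited expression table, because Aldoa stood for 2 entries. The expression filter asked for 1 FPKM or more in 2 or more of the 6 samples, and 34 of the 36 entries passed it, while the second Aldoa entry and Ankrd37 did not. FPKM are fragments per kilobase of gene, scaled to the library total. The cells were bone marrow-derived macrophages (BMDM), grown in culture from the marrow of 6-week-old C57BL/6 mice. They had been given PBS, a buffer, or KN93, a small-molecule inhibitor of calcium/calmodulin-dependent protein kinases, at 5 µM or at 10 µM. Each of these 3 groups had 2 samples. The labels name no altered allele and no further agent in any group, and they do not state how long the cells were treated or how many mice gave marrow. The column names of the deposited table carry the prefix DXM, which no label explains. Whether the 2 samples of a group were separate cultures or animals is not stated. The p-values therefore reflect the spread of these samples alone, and that spread may be technical.

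Glycolysis splits glucose into pyruvate in the cytosol, and macrophages rely on it when they are activated or short of oxygen. Pyruvate is either passed to the mitochondria or reduced to lactate, which leaves the cell through monocarboxylate transporters. When oxygen is scarce, prolyl hydroxylases stop marking the HIF α subunits for destruction, and the α subunit joined to ARNT switches on transporters, glycolytic enzymes and targets such as Vegfa and Bnip3. HIF activity is set largely by the stability of the protein, which was not measured here.

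The library totals implied by the FPKM values ran between 24.17 and 28.38 (in units of 1e6 fragments), and 11964 to 12175 genes reached 1 FPKM in a sample. All 10 macrophage markers were above the filter, with summed FPKM of 18947 and 18429 in PBS cells, 14965 and 14491 at 5 µM and 8425 and 9279 at 10 µM. At 10 µM 1 of them, Cd68, rose, 7 fell, and Fcgr1 and Spi1 did not pass the test, and at 5 µM 2 rose and 5 fell. Markers of other cells moved with the dose as well. The 10 neutrophil markers summed to 115 and 115 FPKM in PBS cells, 37.1 and 42.8 at 5 µM and 5.22 and 7.32 at 10 µM, and all 5 of them above the filter fell at both doses, while Ly6g was at 0 to 0.112 FPKM. The 12 stromal and fibroblast markers summed to 1981 and 1939 FPKM in PBS cells, 636 and 525 at 5 µM and 389 and 369 at 10 µM, and of the 9 tested 7 fell at 10 µM and 6 at 5 µM. Lymphocyte markers summed to at most 8.09 FPKM, nearly all of it from Cd79b, and erythroid markers to at most 0.714. These marker levels move with every dose comparison below, and their part in the results was not tested. In bulk samples such as these, fewer cells of a type and less RNA per cell cannot be told apart.

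At 10 µM against PBS, 12 of the 34 tested genes rose and 6 fell, or 52.9% of them, where 50.5% of all 12722 tested genes were called (limma on log2(FPKM + 1), adjusted p under 0.05). By direction, 28.5% of all tested genes rose and 22% fell. Eno2 and Egln3, counted among the genes that rose, were under 1 FPKM in both PBS samples. They passed the filter only through their KN93 samples. With median-of-ratios scaling, 12 of the 34 rose and 8 fell, while 2955 of all genes rose and 3219 fell, in place of 3631 and 2796. At 5 µM against PBS, 7 rose and 6 fell, or 38.2%, where 30.5% of all genes were called, 15.1% higher and 15.4% lower. Between the doses, at 10 µM against 5 µM, 10 were higher and 4 lower, or 41.2%, where 19.9% of all genes were called, 11.4% higher and 8.5% lower. With median-of-ratios scaling, 8 of the 34 were higher and 4 lower, while 1097 of all genes were higher and 1317 lower, in place of 1455 and 1081. The comparisons at 10 µM and at 5 µM share their PBS samples and are not independent. In the main fit, the shares called against PBS were thus near those of all genes, and the glycolysis and HIF genes moved in both directions. Each test was repeated under up to 15 alternatives, such as other scalings or filters and each sample left out. A call is named as lost where the adjusted p then reached 0.05, and the range in brackets after a call lost or gained is that of the limma adjusted p over its alternatives. At 10 µM the counts among the 34 and among all genes stayed within 1.5 times of their main values when a sample was left out. At 5 µM and between the doses both counts fell by more when a sample of the compared groups was left out. The shares above are therefore those of the main fit alone.

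The median log2 change of the 34 genes was 0.09 at 10 µM and 0.05 at 5 µM against PBS, where the median of all tested genes was 0.05 and 0.01. Between the doses it was 0.11, beside 0.04 for all genes. Without the 10 µM replicate 1 it was 0.02 between the doses, beside 0.03 for all genes. Without the 10 µM replicate 2 it was 0.15, beside 0.04 for all genes. With median-of-ratios scaling it was 0.07 between the doses, beside -0.002 for all genes. Individual changes ran from -1.12 to 1.37 at 10 µM and from -0.89 to 0.74 at 5 µM. The samples of 10 µM and PBS did not overlap for 18 genes that were higher and 14 that were lower, which leaves 2 of the 34 with overlap, and among all tested genes 76.7% did not overlap. At 5 µM 16 were higher without overlap, 9 were lower and 9 overlapped, and among all genes 70% did not overlap. Between the doses 17 were higher without overlap, 7 were lower and 10 overlapped, and among all genes 63.7% did not overlap. With 2 samples a group such separation was common, and it is given for single genes only as a description. On GRCm38, by GENCODE M21, the 5 genes with the largest log2 changes at 10 µM, up or down, were Slc2a6 at chr2:27021363-27027998, Eno2 at chr6:124760053-124769673, Hk3 at chr13:55005985-55021385, Hif1a at chr12:73901375-73947530 and Ldhb at chr6:142490249-142507957.

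**Figure D1:**
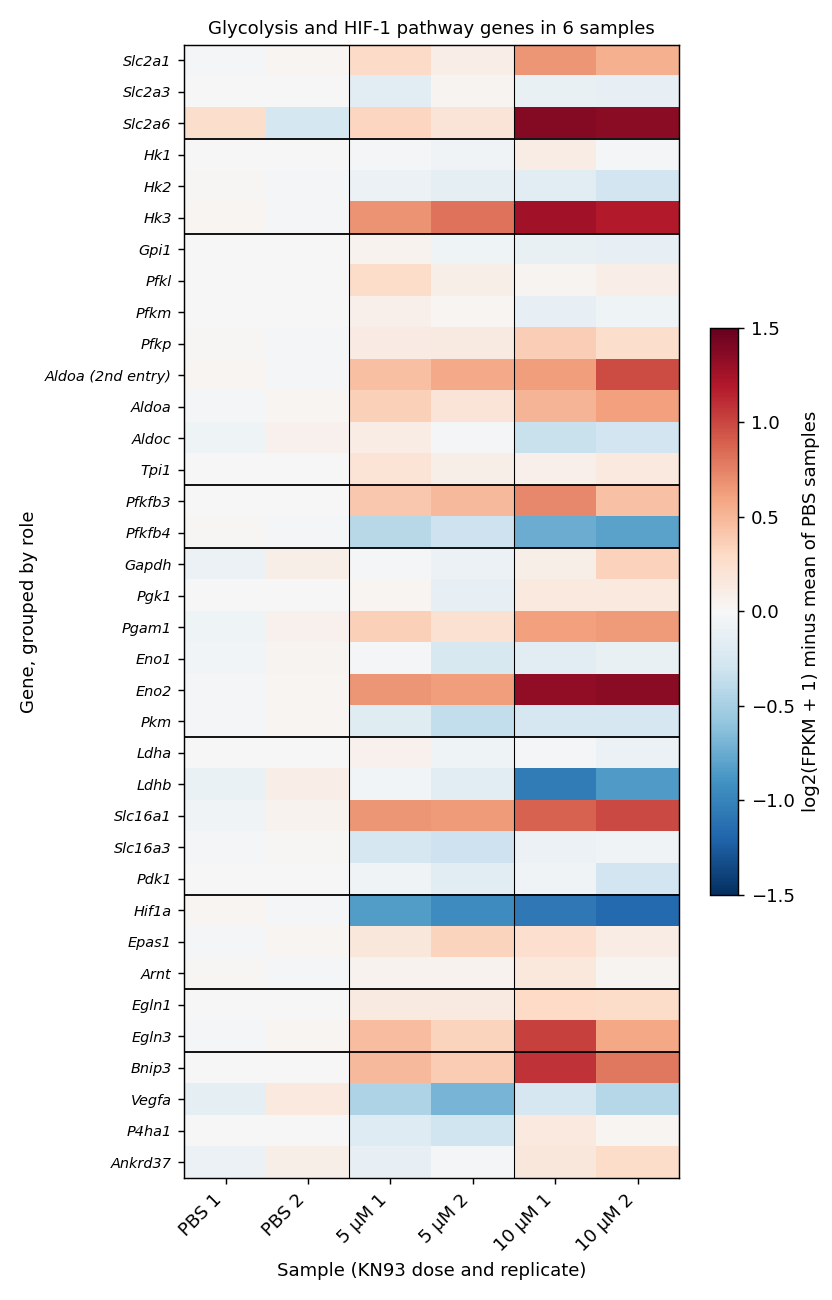
Expression of the 36 entries (rows, grouped by role) in the 6 samples (columns, with the PBS samples at the left), as log2(FPKM + 1) minus the mean of the PBS samples, red for higher and blue for lower. Hk3, Slc2a6 and Eno2 are reddest at 10 µM, and Hif1a, Pfkfb4 and Ldhb are bluest.

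Glucose enters the cell through facilitative transporters, and 3 of them were in the set. Slc2a1 encodes GLUT1, the widespread basal glucose transporter and a classic HIF target. Slc2a1 was at 19.3 and 20.2 FPKM in PBS cells, 24.4 and 21.3 at 5 µM and 31.9 and 29.1 at 10 µM. The 3 groups did not overlap and stood in the order of the dose. Slc2a1 rose at 10 µM by 0.60 ± 0.08 on the log2 scale (limma standard error, adjusted p = 0.00208), and its change of 0.20 ± 0.08 at 5 µM did not pass (adjusted p = 0.12). Slc2a6 encodes GLUT6, a transporter of intracellular membranes that inflammatory stimuli induce in macrophages. Slc2a6 was at 11.3 and 7.59 FPKM in PBS cells, 11.9 and 10.8 at 5 µM and 25.8 and 25.3 at 10 µM, so that 1 PBS sample lay within the range of the 5 µM samples and both 10 µM samples stood apart. It had the largest rise of the 34 genes at 10 µM, 1.37 ± 0.16 (limma adjusted p = 0.00137), a ratio of mean FPKM of 2.70.

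The Slc2a6 change at 5 µM, 0.26 ± 0.16, did not pass (limma adjusted p = 0.282), although without the PBS replicate 1 it did. The difference of Slc2a6 between the doses was 1.10 (adjusted p = 0.00976) and did not pass without the 5 µM replicate 2 or without the 10 µM replicate 1 (0.000727 to 0.0598). The difference of Slc2a1 between the doses, 0.40 (adjusted p = 0.0236), likewise did not pass without either of these samples or with no expression filter (0.00634 to 0.0969). Slc2a3, which encodes GLUT3, a high-affinity transporter best known from neurons, was at 0.985 and 1.01 FPKM in PBS cells, 0.791 and 1.06 at 5 µM and 0.845 and 0.841 at 10 µM. These levels lay at the filter, and no comparison of Slc2a3 passed (limma adjusted p = 0.398 to 0.723). The 3 transporters together summed to 30.2 ± 2.01 FPKM in PBS cells, 35.1 ± 2.78 at 5 µM and 56.9 ± 2.36 at 10 µM (SD, n = 2 each). GLUT6 transcripts made up 44.9% ± 1.25 of that sum at 10 µM, against 31.1% ± 6.65 with PBS.

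**Figure D2:**
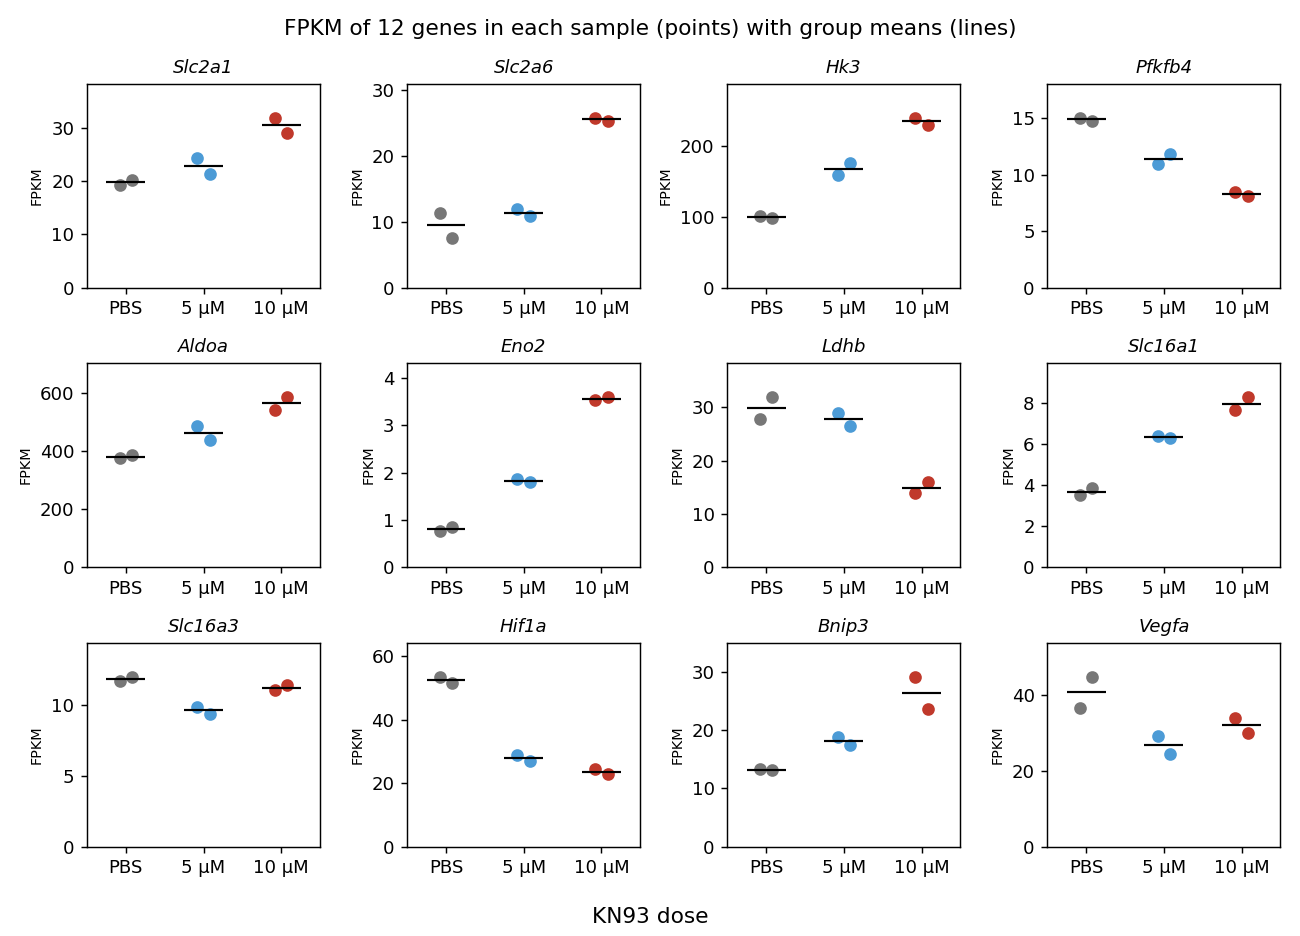
FPKM of 12 of the genes in each sample (points, 2 per group) by KN93 dose, with group means as lines and each axis starting at 0. Hif1a, Pfkfb4 and Ldhb are lower at 10 µM than with PBS, Slc2a6, Hk3, Eno2 and Slc16a1 are higher, and Slc16a3 and Vegfa have their lowest samples at 5 µM.

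Hexokinases trap glucose in the cell as glucose 6-phosphate. Hk3, the isozyme found mainly in myeloid cells, was at 102 and 98.1 FPKM in PBS cells, 160 and 176 at 5 µM and 240 and 230 at 10 µM. The groups did not overlap, and each dose was higher than the one before. Hk3 rose at both doses, by 1.23 ± 0.06 at 10 µM and 0.74 ± 0.06 at 5 µM (limma adjusted p = 7.84e-05 and 0.00112), and was 0.49 ± 0.06 higher at 10 µM than at 5 µM (adjusted p = 0.00677). These calls held in all 15 alternatives. Neither of the other hexokinases was called higher. Hk2, the inducible isozyme and a HIF target, was at 40.5 and 39.8 FPKM in PBS cells, 37.9 and 36.4 at 5 µM and 36.0 and 32.9 at 10 µM, all 10 µM samples being below the others. Its fall at 10 µM, -0.22 ± 0.06 (limma adjusted p = 0.024), did not pass with no expression filter or without the PBS replicate 1, the PBS replicate 2 or the 10 µM replicate 2 (0.008 to 0.104). Hk1, the housekeeping isozyme, was at 16.5 and 16.6 FPKM in PBS cells, 16.3 and 15.9 at 5 µM and 17.95 and 16.4 at 10 µM, with 10 µM and PBS samples overlapping and no call.

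As a share of the summed FPKM of the 3 hexokinases, Hk3 made up 63.8% ± 0.389 in PBS cells, 75.9% ± 1.69 at 5 µM and 82.0% ± 0.486 at 10 µM (SD, n = 2 each). Hk2 made up 12.0% ± 0.32 at 10 µM and 25.7% ± 0.147 with PBS. The summed hexokinase level was 157 ± 2.92 FPKM in PBS cells, 221 ± 10.2 at 5 µM and 287 ± 10.7 at 10 µM.

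The next steps turn glucose 6-phosphate into triose phosphates. Aldoa, which encodes the main aldolase of this pathway, was the most abundant of the genes that rose, at 375 and 388 FPKM in PBS cells, 488 and 438 at 5 µM and 543 and 587 at 10 µM. No group overlapped another. Aldoa rose by 0.56 ± 0.07 at 10 µM and 0.28 ± 0.07 at 5 µM (limma adjusted p = 0.00196 and 0.04). At 5 µM Aldoa no longer passed when any 1 of the PBS or 5 µM samples was left out and in 3 further alternatives (0.0215 to 0.172). Its step between the doses, 0.29 (adjusted p = 0.0477), was lost in 12 of 15 alternatives, among them those where any 1 of the 6 samples was left out (0.0154 to 0.19). The second Aldoa entry, ENSMUSG00000114515, which GENCODE M21 places just upstream on the same strand of chromosome 7, held only 6 and 5 fragments in PBS cells, 15 and 19 at 5 µM and 18 and 33 at 10 µM and was not tested. Aldoc, an aldolase isozyme best known from brain, was at 3.38 and 3.77 FPKM in PBS cells, 3.93 and 3.48 at 5 µM and 2.62 and 2.74 at 10 µM. Both 10 µM samples lay below all others. Aldoc fell at 10 µM by 0.31 against PBS on the log2 scale (limma adjusted p = 0.0205), a call lost without the PBS replicate 2 or either 10 µM sample and with no expression filter (0.0119 to 0.108). It also fell by 0.35 against 5 µM (adjusted p = 0.0318), which was lost in 8 of 14 alternatives, among them those where any 1 of the 5 µM or 10 µM samples was left out and that without the PBS replicate 2 (0.0244 to 0.136).

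Gpi1, Tpi1 and 2 of the 3 phosphofructokinase genes did not pass in any comparison. Gpi1, which encodes glucose 6-phosphate isomerase, was at 86.5 and 86.4 FPKM in PBS cells, 89.5 and 82.8 at 5 µM and 79.8 and 79.2 at 10 µM. Pfkl, the liver-type phosphofructokinase and the most abundant of the 3 here, was at 28.0 and 28.4 FPKM in PBS cells, 34.4 and 30.0 at 5 µM and 29.1 and 30.4 at 10 µM. Phosphofructokinase catalyses the committed step of glycolysis. Pfkm, the muscle type, was at 6.63 and 6.67 FPKM in PBS cells, 7.07 and 6.81 at 5 µM and 6.03 and 6.29 at 10 µM. These isozymes differ in their regulation. Tpi1, which encodes triose phosphate isomerase, was at 132 and 133 FPKM in PBS cells, 152 and 140 at 5 µM and 139 and 146 at 10 µM. For these genes the 10 µM and PBS samples did not overlap, but the log2 changes at 10 µM lay between -0.12 for Gpi1 and 0.11 for Tpi1 (limma adjusted p = 0.107 to 0.427). The lower level of Gpi1 at 10 µM passed with median-of-ratios scaling, quantile normalization and voom (0.0306 to 0.262). Gpi1 exons share 741 bases, 11.5% of them, with Gm26762 on the other strand, which was at 3.8 to 5.7 FPKM over the samples. Pfkp, the platelet type, was at 3.59 and 3.50 FPKM in PBS cells, 3.95 and 3.98 at 5 µM and 4.84 and 4.47 at 10 µM, without overlap. It rose at 10 µM by 0.32 ± 0.06 (limma adjusted p = 0.00752), and its exons share 748 bases with those of Pitrm1 on the other strand, 5.58% of the Pfkp exon bases. Pitrm1 was at a higher level than Pfkp and moved with it, at 13.5 and 13.4 FPKM in PBS cells, 16.8 and 16.4 at 5 µM and 17.4 and 17.4 at 10 µM. Since use of strand is not stated, reads of the shared bases cannot be told apart, and the Pfkp values are uncertain to that extent.

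Bifunctional enzymes set the level of fructose 2,6-bisphosphate, the strongest activator of phosphofructokinase. The transcripts of Pfkfb3 and Pfkfb4, those in the set, moved in opposite directions. Pfkfb3, whose product mainly makes the activator, was at 10.6 and 10.4 FPKM in PBS cells, 14.2 and 15.1 at 5 µM and 17.9 and 14.6 at 10 µM. The samples of both doses were above PBS but overlapped each other. Pfkfb3 rose by 0.58 ± 0.10 at 10 µM and 0.45 ± 0.10 at 5 µM (limma adjusted p = 0.00456 and 0.0199). At 5 µM Pfkfb3 no longer passed when any 1 of the PBS or 5 µM samples was left out and with no expression filter (0.00667 to 0.0949). Pfkfb4, which encodes a related isozyme and is a HIF target in other cells, was at 15.1 and 14.8 FPKM in PBS cells, 11.0 and 11.8 at 5 µM and 8.47 and 8.13 at 10 µM. The 3 groups stood apart, the lowest being 10 µM. Pfkfb4 fell by 0.78 at 10 µM and by 0.36 at 5 µM on the log2 scale (limma adjusted p = 0.00022 and 0.00694), and by 0.41 between the doses (adjusted p = 0.00726), calls that held in all 15 alternatives. The sum of both was 24.5 ± 2.59 FPKM at 10 µM, beside 25.4 ± 0.313 with PBS, while Pfkfb3 made up 41.3% ± 0.119 of it in PBS cells, 56.3% ± 0.31 at 5 µM and 66.0% ± 2.61 at 10 µM (SD, n = 2 each).

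**Figure D3:**
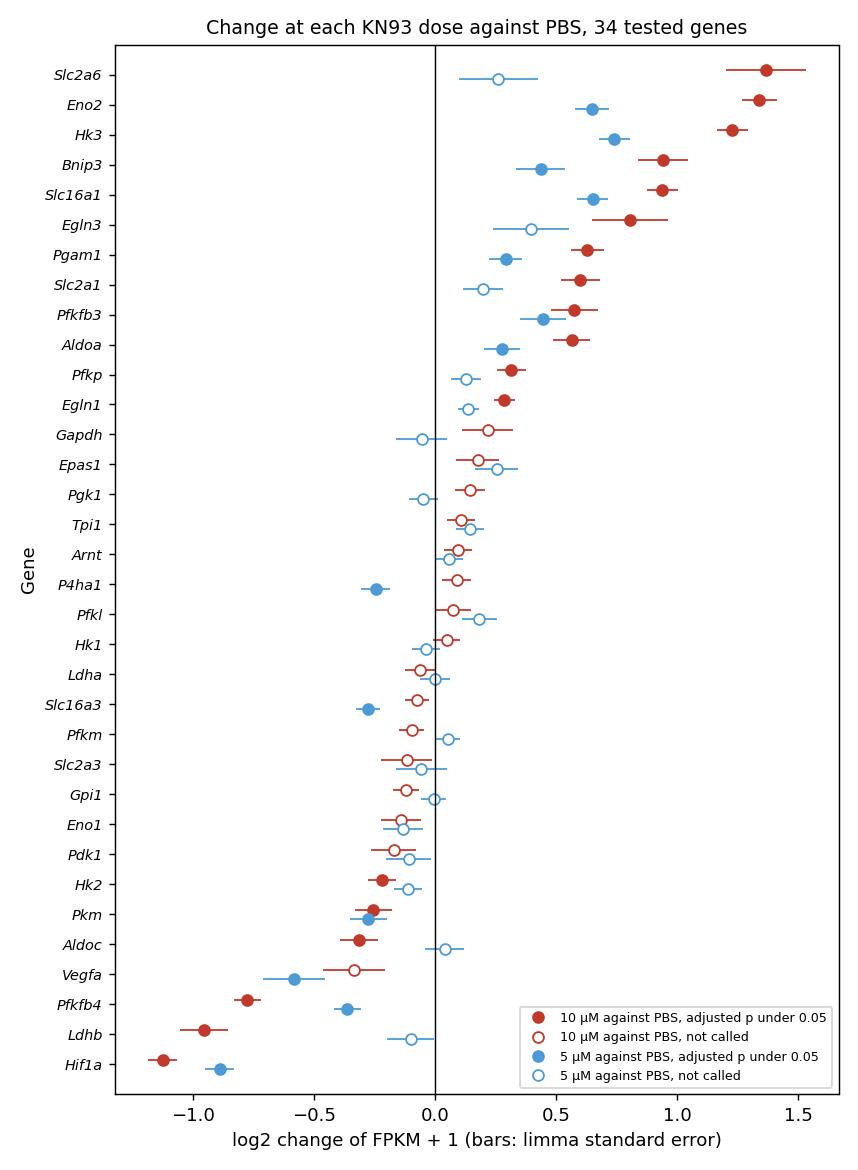
log2 change of FPKM + 1 against PBS for the 34 tested genes (points, bars are limma standard errors), at 10 µM (red) and 5 µM (blue), with filled points for an adjusted p under 0.05. The genes are ordered by the change at 10 µM, which runs between -1.12 for Hif1a and 1.37 for Slc2a6.

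In the later steps of the pathway, Pgam1 and Eno2 rose and Pkm fell. Pgam1, which encodes phosphoglycerate mutase, was at 126 and 137 FPKM in PBS cells, 169 and 153 at 5 µM and 202 and 205 at 10 µM. The groups did not overlap. Pgam1 rose by 0.63 ± 0.07 at 10 µM and 0.29 ± 0.07 at 5 µM (limma adjusted p = 0.000955 and 0.0252), the second of which was lost without replicate 1 of PBS or of 5 µM and with no expression filter (0.0124 to 0.126). The step between the doses, 0.33 (adjusted p = 0.0244), was lost without the 5 µM replicate 2, without either 10 µM sample and with no expression filter (0.00715 to 0.112). Eno2, which encodes the γ enolase known as a marker of neurons and as a HIF target, was at 0.766 and 0.84 FPKM in PBS cells, 1.86 and 1.79 at 5 µM and 3.53 and 3.59 at 10 µM. Both PBS samples were under 1 FPKM, so Eno2 passed the filter only through its KN93 samples. It stood on few fragments, 401 and 480 at 10 µM and 97 and 112 with PBS, yet the groups were far apart. The ratio of mean FPKM was 4.43 at 10 µM and 2.27 at 5 µM over PBS. The pseudocount makes the fitted change of so low a gene smaller than this ratio. Eno2 rose by 1.34 ± 0.07 and 0.65 ± 0.07 on the log2(FPKM + 1) scale (limma adjusted p = 8.71e-05 and 0.00253), and voom on the recovered fragments gave 2.11 and 1.15. The step between the doses was 0.69 (adjusted p = 0.00352).

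Pkm encodes pyruvate kinase M, which makes pyruvate and ATP in the last step and was the most abundant member with PBS. Pkm was at 425 and 442 FPKM in PBS cells, 384 and 335 at 5 µM and 364 and 363 at 10 µM. Both doses were below PBS and overlapped each other. Its falls of 0.25 at 10 µM and 0.27 at 5 µM on the log2 scale passed by little (limma adjusted p = 0.0356 and 0.0424). They were lost in 7 and 10 of 15 alternatives, among them quantile normalization, the replicate block and the fits without either PBS sample or either 10 µM sample, and at 5 µM also that without the 5 µM replicate 2 (0.00874 to 0.156 and 0.00965 to 0.168). With quantile normalization the changes were -0.15 and -0.17. Pkm exons share 767 bases, 15.3% of them, with Gm49759 on the same strand. Gm49759 was at 14.6 and 15.3 FPKM in PBS cells, 10.2 and 9.46 at 5 µM and 12.6 and 10.0 at 10 µM. Fragments of the shared bases cannot be told apart.

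Gapdh, Pgk1 and Eno1, which encode glyceraldehyde 3-phosphate dehydrogenase, phosphoglycerate kinase and α enolase, were not called in any comparison. Against PBS at 10 µM, Pgk1 passed with quantile normalization (0.0164 to 0.317) and Gapdh without the 10 µM replicate 1 (0.0417 to 0.494). Pgk1 was at 169 and 168 FPKM in PBS cells, 172 and 155 at 5 µM and 187 and 187 at 10 µM. Eno1 was at 106 and 112 FPKM in PBS cells, 107 and 92.1 at 5 µM and 97.0 and 101 at 10 µM. Gapdh was listed at only 13.3 and 15.2 FPKM in PBS cells, 14.1 and 13.3 at 5 µM and 15.2 and 18.4 at 10 µM, where its transcript is among the most abundant of most cells. In GENCODE M21, 77 other genes have a transcript at least 95% identical to one of Gapdh over at least 300 aligned bases. Their FPKM summed to 376 and 200 in PBS cells, 215 and 210 at 5 µM and 236 and 401 at 10 µM, far above the Gapdh entry itself.

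Eno1 has a like partner. Eno1b, 99.5% identical over 1736 aligned bases, was at 183 and 292 FPKM in PBS cells, 298 and 59.7 at 5 µM and 76.2 and 149 at 10 µM. The 5 µM samples of Eno1b thus differed several fold, while Eno1 itself varied far less. How the fragments of such pairs were assigned is not given in the sources used here, so the values of Gapdh and Eno1 are uncertain. Of the 36 entries, 11 had at least 1 such gene, but for Pgk1, Ldha, Ldhb and Gpi1 the copies summed to at most 1.75 FPKM. The copies of Tpi1, Pkm and Pgam1 were larger, with Tpi-rs11 at up to 39.4 FPKM, Gm6560 at up to 19.0 and Pgam1-ps2 at up to 15.5. For Pfkp the gene counted here was Pitrm1, whose overlap and higher FPKM are given above.

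**Figure D4:**
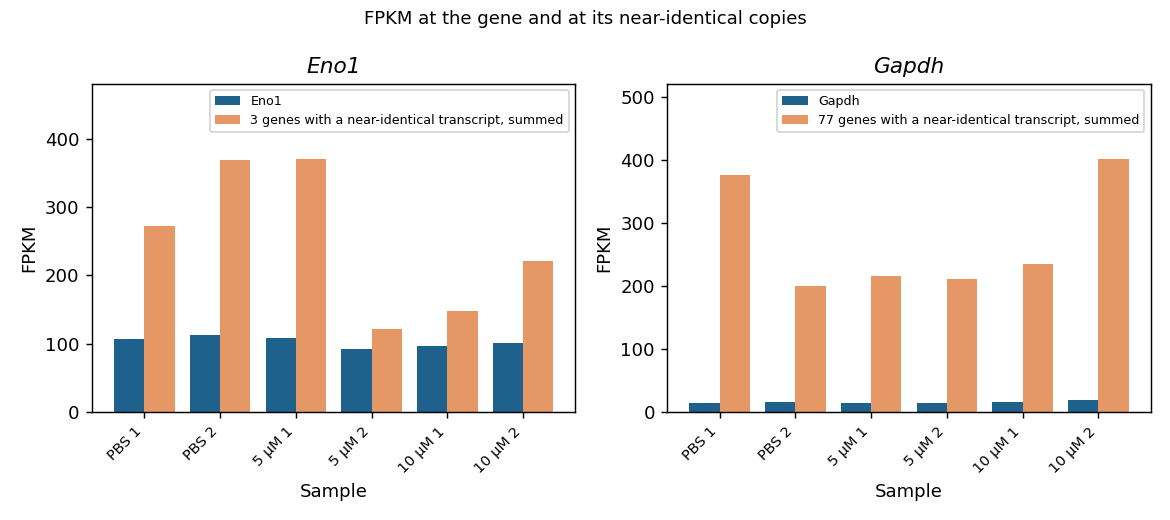
FPKM in each of the 6 samples (PBS at the left) of Eno1 and Gapdh (blue bars) and of all genes with a near-identical transcript, summed (orange bars, 3 genes for Eno1 and 77 for Gapdh). Between samples of the same group the summed copies differ most for Eno1 at 5 µM (370 and 121) and least for Gapdh at 5 µM (215 and 210). Eno1 itself stays between 92.1 and 112 FPKM and Gapdh between 13.3 and 18.4.

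The 18 glycolytic enzyme genes of the set, of which the regulators and transporters are no part, summed to 1968 ± 32.7 FPKM in PBS cells, 2072 ± 131 at 5 µM and 2275 ± 25.5 at 10 µM (SD, n = 2 each). The larger absolute gains came from Aldoa, Hk3 and Pgam1, and the larger loss from Pkm. Gapdh and Eno1 enter this sum at their uncertain levels, and their copies, which summed to at most 401 and 370 FPKM in a sample, are left out of it.

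The fate of pyruvate is set by lactate dehydrogenase, the mitochondrial pyruvate dehydrogenase and its kinases, and by the lactate carriers. Ldha, which encodes the M subunit that favours lactate formation, was at 283 and 280 FPKM in PBS cells, 296 and 268 at 5 µM and 276 and 265 at 10 µM, and no comparison passed (limma adjusted p = 0.469 at 10 µM). Ldhb, which encodes the H subunit, was at 27.8 and 31.9 FPKM in PBS cells, 29.0 and 26.5 at 5 µM and 13.9 and 16.0 at 10 µM. The 5 µM and PBS samples overlapped and both 10 µM samples were far below them. Ldhb fell by 0.95 at 10 µM against PBS and by 0.85 against 5 µM on the log2 scale (limma adjusted p = 0.000807 and 0.00485), calls that held in all 15 alternatives, while the 5 µM change of -0.10 did not pass (adjusted p = 0.484). Ldhb made up 9.59% ± 0.914 of the summed lactate dehydrogenase FPKM in PBS cells, 8.96% ± 0.0288 at 5 µM and 5.25% ± 0.663 at 10 µM (SD, n = 2 each). Pdk1, a HIF target whose kinase switches off pyruvate dehydrogenase, was at 5.08 and 5.07 FPKM in PBS cells, 4.86 and 4.41 at 5 µM and 4.86 and 3.98 at 10 µM and was not called.

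Slc16a1 encodes the monocarboxylate transporter MCT1, which carries lactate either way. It was at 3.53 and 3.84 FPKM in PBS cells, 6.42 and 6.30 at 5 µM and 7.66 and 8.29 at 10 µM. All treated samples lay above PBS, and 10 µM above 5 µM. Slc16a1 rose by 0.94 ± 0.06 at 10 µM and 0.65 ± 0.06 at 5 µM (limma adjusted p = 0.00019 and 0.00176), and both calls held in all alternatives. The step of 0.29 between the doses (adjusted p = 0.0316) was lost in 6 of 15, including those where any 1 of the 5 µM or 10 µM samples was left out (0.0128 to 0.136). Slc16a3 encodes MCT4, the lactate exporter of glycolytic cells and a HIF target. Slc16a3 was at 11.7 and 12.0 FPKM in PBS cells, 9.85 and 9.41 at 5 µM and 11.1 and 11.4 at 10 µM. The 5 µM samples were the lowest, and the 10 µM samples lay between them and PBS.

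Slc16a3 fell at 5 µM by 0.28 (limma adjusted p = 0.0112), a call lost without either PBS sample or without the 5 µM replicate 2 (0.00259 to 0.0686), and the change of -0.07 at 10 µM did not pass (adjusted p = 0.269). It was 0.20 higher at 10 µM than at 5 µM (adjusted p = 0.0393), which was lost in 12 of 15 alternatives, among them those where any 1 of the 6 samples was left out (0.0231 to 0.181). MCT1 transcripts made up 23.7% ± 0.77 of the summed FPKM of both transporters in PBS cells, 39.8% ± 0.471 at 5 µM and 41.5% ± 0.85 at 10 µM (SD, n = 2 each).

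**Figure D5:**
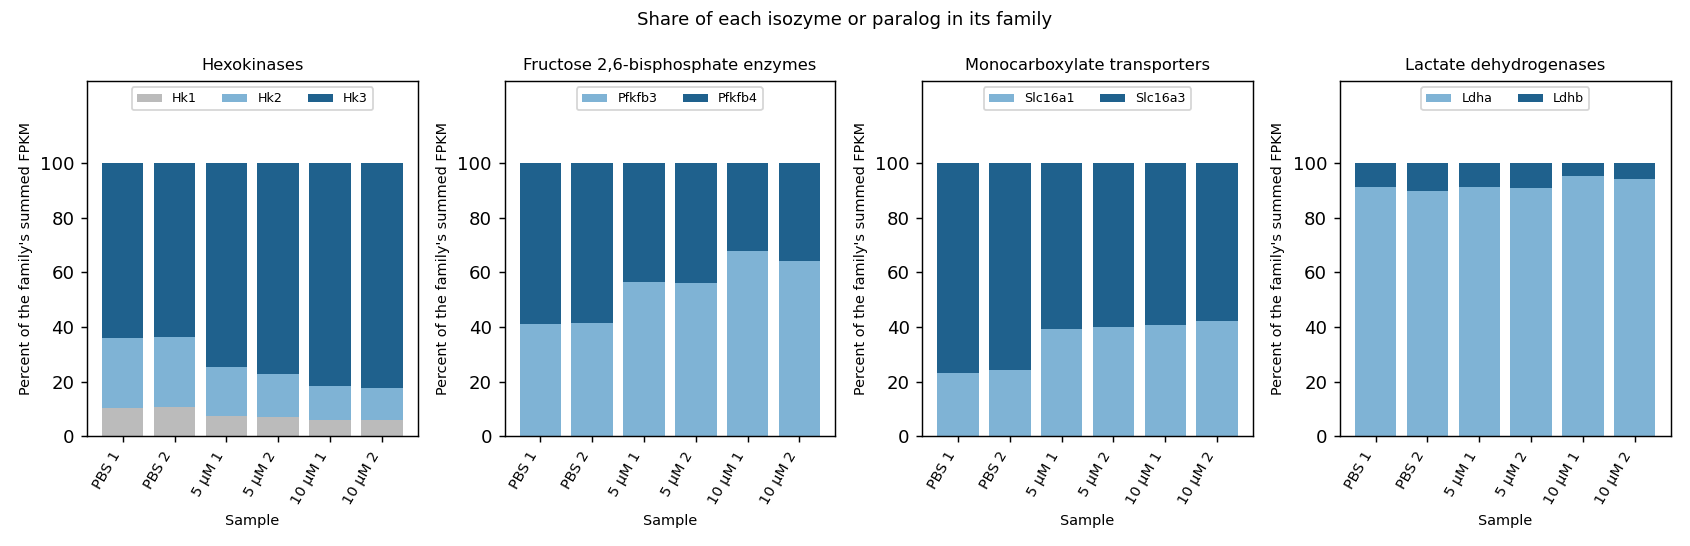
Share of each gene in the summed FPKM of those genes of its family that are in the set (stacked bars, percent). The 6 samples are shown with PBS at the left. The Hk3 share reaches 82.0% at 10 µM against 63.8% with PBS, Pfkfb3 66.0% against 41.3%, Slc16a1 41.5% against 23.7% and Ldhb 5.25% against 9.59%.

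Hif1a encodes the regulated α subunit of HIF-1, and its transcript had the largest fall of the 34 genes at both doses. It was at 53.6 and 51.5 FPKM in PBS cells, 29.0 and 26.9 at 5 µM and 24.4 and 22.8 at 10 µM. The groups did not overlap, and most of the difference was already present at 5 µM. Hif1a fell by 1.12 at 10 µM and by 0.89 at 5 µM on the log2 scale (limma standard error 0.06 each, adjusted p = 8.8e-05 and 0.000641), calls that held in all 15 alternatives. The further difference of -0.23 between the doses (adjusted p = 0.0457) was lost in 9 of 15, including those where any 1 of the 6 samples was left out (0.0262 to 0.184). Its exons share 330 bases, 5.60% of them, with the antisense gene Gm15283. That gene was at 4.94 and 5.62 FPKM in PBS cells, 2.97 and 3.56 at 5 µM and 2.32 and 1.62 at 10 µM. Since use of strand is not stated, fragments of the shared bases cannot be told apart. The other subunits were not called. Epas1, which encodes the HIF-2 α subunit, was at 2.47 and 2.61 FPKM in PBS cells, 2.98 and 3.47 at 5 µM and 3.20 and 2.81 at 10 µM. Arnt, which encodes the shared β subunit, was at 9.91 and 9.59 FPKM in PBS cells, 10.2 and 10.2 at 5 µM and 11.0 and 10.0 at 10 µM. Neither gene passed at either dose (limma adjusted p = 0.0809 to 0.497).

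The prolyl hydroxylases mark HIF α subunits for destruction, and Egln1 and Egln3 are themselves HIF targets. Egln1, the main oxygen sensor of the family, was at 12.4 and 12.4 FPKM in PBS cells, 13.8 and 13.8 at 5 µM and 15.6 and 15.2 at 10 µM. Its samples hardly varied within a group and the groups stood apart. Egln1 rose at 10 µM by 0.29 ± 0.04 (limma adjusted p = 0.0032), and its 0.14 at 5 µM did not pass (adjusted p = 0.0616). Egln3 was at 0.796 and 0.875 FPKM in PBS cells, 1.53 and 1.31 at 5 µM and 2.74 and 1.75 at 10 µM. The 10 µM samples were unequal, yet both lay above all others. Both PBS samples were under 1 FPKM, so Egln3 passed the filter only through its KN93 samples. Egln3 rose at 10 µM by 0.80 ± 0.16 (limma adjusted p = 0.00814), a ratio of mean FPKM of 2.68, and voom on its 132 to 176 fragments at 10 µM and 57 to 66 with PBS gave 1.33. The Egln3 change of 0.40 ± 0.16 at 5 µM did not pass (limma adjusted p = 0.111), although it did with only the compared groups fitted. Both hydroxylase calls at 10 µM held in all alternatives run.

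Other HIF targets went separate ways. Bnip3, whose product drives removal of mitochondria, was at 13.3 and 13.1 FPKM in PBS cells, 18.9 and 17.5 at 5 µM and 29.2 and 23.6 at 10 µM. The groups did not overlap and followed the dose. Bnip3 rose by 0.94 ± 0.10 at 10 µM and 0.44 ± 0.10 at 5 µM (limma adjusted p = 0.000957 and 0.0259). At 5 µM Bnip3 no longer passed when any 1 of the PBS or 5 µM samples was left out and with no expression filter (0.0087 to 0.118). The step between the doses was 0.51 (adjusted p = 0.0239) and was lost without either 5 µM sample and with no expression filter (0.00698 to 0.115). An antisense gene, Gm45507, shares 504 exon bases with Bnip3, 22.2% of them, and since the use of strand is not given, fragments of the pair cannot be told apart. Gm45507 itself was at 4.14 and 4.82 FPKM at 10 µM and 2.65 and 2.31 with PBS.

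Vegfa, which encodes the angiogenic growth factor VEGF-A, was at 36.6 and 44.9 FPKM in PBS cells, 29.1 and 24.6 at 5 µM and 34.0 and 30.0 at 10 µM. All treated samples were below PBS, with those at 5 µM the lowest. Vegfa fell at 5 µM by 0.58 (limma adjusted p = 0.0215), lost without replicate 2 of PBS or of 5 µM and with no expression filter (0.00361 to 0.0963), and the -0.33 at 10 µM did not pass (adjusted p = 0.0763). The 10 µM change passed with median-of-ratios scaling, with voom and without the PBS replicate 1 (0.0248 to 0.299). P4ha1, which encodes a subunit of the hydroxylase that matures collagen, was at 49.1 and 49.1 FPKM in PBS cells, 42.9 and 39.8 at 5 µM and 54.5 and 50.2 at 10 µM. The 5 µM samples were the lowest and the 10 µM samples the highest. P4ha1 fell at 5 µM by 0.24 (limma adjusted p = 0.0312), lost when any 1 of the PBS or 5 µM samples was left out and with no expression filter (0.00916 to 0.144), and its 0.09 at 10 µM did not pass (adjusted p = 0.27). It was 0.33 higher at 10 µM than at 5 µM (adjusted p = 0.0178), lost without the 5 µM replicate 2, without the 10 µM replicate 1 and with no expression filter (0.00574 to 0.0946). The collagen genes among the stromal markers fell at 10 µM in the same samples, Col1a1 being at 168 and 153 FPKM at 10 µM and 831 and 781 with PBS. Ankrd37, a HIF target below the filter, was at 0.58 and 0.78 FPKM in PBS cells, 0.543 and 0.656 at 5 µM and 0.887 and 1.03 at 10 µM, on 22 to 45 fragments, and was not tested.

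HIF binds the core ACGTG or GCGTG, and ACGTG is also part of the E-box CACGTG that MYC and the MiT/TFE factors bind. The 250 bases upstream of each annotated start were searched on both strands in RefSeq (GRCm38.p6), where 33 of the 35 symbols matched, all but Slc2a3 and Epas1, and a gene with several starts counted once if any of them held the motif. ACGTG stood in 19 of the 33 (57.6%) and in 18.5% of all 27025 genes. GCGTG stood in 22 (66.7%), against 30.9% of all genes, and 30 (90.9%) held at least 1 of them, against 41.5%. The list was chosen by name to hold HIF targets, so its higher shares are no result of these data, and their source was not tested. All RefSeq genes were counted, expressed here or not, and a gene with several starts had more chances to match. ACGTG was present in 9 of the 12 genes that rose at 10 µM, in 3 of the 6 that fell and in 6 of the 14 with a promoter that were not called. A match is only a run of letters and not a binding site. Below are the upstream sequences of the 5 called genes with an ACGTG and the largest change at 10 µM, up or down. Each reads 5′ to 3′ toward the start, with ACGTG on either strand in capitals (CACGT is the same motif on the other strand).
Hk3 promoter, chr13:55021386-55021635, minus strand: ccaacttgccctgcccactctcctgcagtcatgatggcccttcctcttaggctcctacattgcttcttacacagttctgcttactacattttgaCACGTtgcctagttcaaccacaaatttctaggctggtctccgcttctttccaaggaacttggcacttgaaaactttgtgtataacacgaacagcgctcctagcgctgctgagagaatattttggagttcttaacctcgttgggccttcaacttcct
Hif1a promoter, chr12:73907617-73907866, plus strand: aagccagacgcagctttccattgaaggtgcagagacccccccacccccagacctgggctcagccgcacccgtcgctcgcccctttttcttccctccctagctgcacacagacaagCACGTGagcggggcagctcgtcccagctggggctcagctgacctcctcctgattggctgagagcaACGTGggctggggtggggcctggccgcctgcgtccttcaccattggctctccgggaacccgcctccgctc
Bnip3 promoter, chr7:138909507-138909756, minus strand: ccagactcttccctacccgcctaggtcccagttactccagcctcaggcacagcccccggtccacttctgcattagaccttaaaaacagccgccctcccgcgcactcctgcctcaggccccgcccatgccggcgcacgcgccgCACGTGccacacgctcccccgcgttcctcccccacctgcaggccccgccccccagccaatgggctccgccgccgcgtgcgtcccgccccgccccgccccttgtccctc
Slc16a1 promoter, chr3:104638414-104638663, plus strand: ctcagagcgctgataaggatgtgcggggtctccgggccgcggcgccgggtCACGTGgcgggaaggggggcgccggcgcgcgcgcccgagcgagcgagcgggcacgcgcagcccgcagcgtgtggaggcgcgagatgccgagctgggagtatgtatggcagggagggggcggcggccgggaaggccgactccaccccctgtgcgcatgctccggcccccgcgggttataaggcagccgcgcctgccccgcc
Egln3 promoter, chr12:54203875-54204124, minus strand: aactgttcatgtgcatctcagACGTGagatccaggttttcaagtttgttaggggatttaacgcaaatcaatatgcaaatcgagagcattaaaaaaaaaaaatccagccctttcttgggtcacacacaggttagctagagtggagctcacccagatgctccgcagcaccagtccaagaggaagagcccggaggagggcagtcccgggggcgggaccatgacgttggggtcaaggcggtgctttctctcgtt

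Counted back from the start, Hif1a, Bnip3 and Slc16a1 carried the palindrome CACGTG, in which ACGTG reads on both strands, beginning at -135 in Hif1a, -108 in Bnip3 and -200 in Slc16a1. Hif1a held a further ACGTG at -70. Hk3 had a single match at -156, on the opposite strand, and Egln3 a single one at -229. Of these genes Hk3, Bnip3, Slc16a1 and Egln3 rose at 10 µM and Hif1a fell. They were picked by the motif and the size of change, and a link of the motif with direction was not tested.

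The change per dose step was compared by testing whether the second step, 10 µM against 5 µM, differed from the first, 5 µM against PBS. Of the 34 genes 3 passed, all with a second step above the first, or 8.82%, where 5.36% of all genes were called and 2.88% had a higher and 2.48% a lower second step. Hif1a had steps of -0.23 and then -0.89 for the second and the first (difference 0.65 ± 0.10, limma adjusted p = 0.0346). P4ha1 had 0.33 and -0.24 (difference 0.58 ± 0.11, adjusted p = 0.0431), and Slc16a3 had 0.20 and -0.28 (difference 0.48 ± 0.09, adjusted p = 0.0415). Hif1a thus fell mostly at the first step, while P4ha1 and Slc16a3 were lowest at 5 µM. No more than 1 gene passed when a sample was left out, Slc2a6 without the PBS replicate 2, and each of the 3 was lost when any 1 of the 6 samples was left out (0.00919 to 0.214 for Hif1a, 0.0134 to 0.241 for P4ha1 and 0.0144 to 0.241 for Slc16a3 over all alternatives). Hk3, Eno2, Pfkfb4 and Aldoa had differences of -0.25, 0.04, -0.05 and 0.01 that did not pass (adjusted p = 0.216 to 0.967).

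Beyond the 35 symbols, 37 entries for other glycolysis isozymes and pyruvate enzymes gave 26 tested genes. At 10 µM 8 of them rose and 5 fell, and at 5 µM 8 rose and 3 fell, with medians of 0.06 and 0.08. Of all tested genes 50.5% were called at 10 µM and 30.5% at 5 µM, with medians of 0.05 and 0.01. The 4 genes described next had the largest change at 10 µM among those called. Pcx, which encodes pyruvate carboxylase, was at 1.35 and 1.18 FPKM in PBS cells, 2.51 and 2.40 at 5 µM and 5.98 and 5.16 at 10 µM, and rose by 1.53 ± 0.09 at 10 µM (limma adjusted p = 0.000106). Pdp1, which encodes the phosphatase that switches pyruvate dehydrogenase on, was at 4.90 and 4.72 FPKM in PBS cells, 11.8 and 12.4 at 5 µM and 14.3 and 14.2 at 10 µM, and rose by 1.40 ± 0.05 (limma adjusted p = 3.26e-05). Mpc1, which encodes a subunit of the mitochondrial pyruvate carrier, was at 7.26 and 7.76 FPKM in PBS cells, 14.5 and 13.4 at 5 µM and 13.9 and 14.0 at 10 µM. It rose by 0.81 at each dose (limma adjusted p = 0.000244 at 10 µM and 0.000793 at 5 µM). In these 3 genes every treated sample lay above both PBS samples. Pgm2, which encodes a phosphoglucomutase, was at 19.8 and 20.8 FPKM in PBS cells, 27.0 and 24.0 at 5 µM and 32.4 and 30.1 at 10 µM, without overlap, and rose by 0.60 ± 0.07 at 10 µM (limma adjusted p = 0.00147).

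Of 31 other HIF pathway entries 28 were tested, of which 12 rose and 6 fell at 10 µM and 7 rose and 5 fell at 5 µM, with medians of 0.15 and 0.08, where 50.5% and 30.5% of all tested genes were called. Lox, which encodes the collagen cross-linking enzyme lysyl oxidase, was at 96.6 and 97.3 FPKM in PBS cells, 45.5 and 42.3 at 5 µM and 46.9 and 41.6 at 10 µM, and fell by 1.12 at 10 µM (limma adjusted p = 0.000151). Stromal cells are known to express Lox, and the stromal marker sums given above were lower at both doses, a part in this fall that was not tested. Ndrg1, a stress and HIF target, was at 2.14 and 1.92 FPKM in PBS cells, 6.13 and 6.14 at 5 µM and 8.65 and 8.09 at 10 µM, and rose by 1.63 ± 0.06 (limma adjusted p = 3.88e-05). Ero1l, which encodes an oxidase of the endoplasmic reticulum, was at 9.68 and 9.35 FPKM in PBS cells, 17.9 and 16.4 at 5 µM and 30.7 and 25.7 at 10 µM, and rose by 1.47 ± 0.09 (limma adjusted p = 0.000148). The groups of Ndrg1 and of Ero1l did not overlap. As in the 35 symbols, this list held members called in each direction.

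The pentose phosphate pathway, which branches off at glucose 6-phosphate and makes NADPH, had 10 tested genes, of which 1 rose and 2 fell at 10 µM and 2 rose and 1 fell at 5 µM, where 50.5% and 30.5% of all tested genes were called. G6pdx, which encodes its entry enzyme, was at 69.9 and 71.1 FPKM in PBS cells, 59.3 and 55.6 at 5 µM and 55.3 and 49.4 at 10 µM. All treated samples were below PBS. G6pdx fell by 0.42 at 10 µM (limma adjusted p = 0.004). Taldo1, which encodes transaldolase, was at 164 and 196 FPKM at 10 µM and 117 and 139 with PBS, and its rise of 0.49 (limma adjusted p = 0.0245) was lost without replicate 1 of PBS or replicate 2 of 10 µM and with no expression filter (0.00884 to 0.111). H6pd, which encodes the related enzyme of the endoplasmic reticulum, was at 23.6 and 23.4 FPKM at 10 µM and 25.6 and 27.2 with PBS, and its fall of 0.16 (limma adjusted p = 0.0467) was lost in 10 of 15 alternatives (0.0143 to 0.215).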

How the data were processed

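Per the labels' protocols, total RNA of the 6 samples was sequenced from Illumina libraries. The authors deposited FPKM, 1 column per sample, and 0 columns belonged to no sample. Reads had been aligned with HISAT2 to GRCm38, per the submitters' processing notes, and the sources used here give no version, counting tool, annotation or use of strand. IDs matched GENCODE M21 for 54409 of 54446 entries (99.93%). Its summed exon lengths turned FPKM back into whole fragments: for entries with 20 fragments or fewer, 98.81% to 98.96% of the values were whole (tolerance 0.1 fragment).

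Genes with 1 FPKM or more in 2 or more samples (12722) were fitted as log2(FPKM + 1) with limma 3.58.1 in R 4.3.3 (3 groups in one fit, intensity trend, 3 residual and 2.72 prior degrees of freedom), two-sided, with Benjamini-Hochberg adjustment over all tested genes and a threshold of 0.05. The pseudocount of 1 FPKM understates changes of low genes. The script was tested on simulated data. All members were named by rule, and of other lists the 4 tested genes with the largest change at 10 µM among those called (3 in the pentose phosphate list). One gene that this rule selects is not reported here. The members and lists were chosen with earlier results of these data known. The alternatives were a pseudocount of 0.1 FPKM, a filter of 5 FPKM or none, other scalings, no trend, the replicate number as a block, only the groups compared, voom on recovered fragments, and each sample left out. Replicate numbers came from accession order and only name samples. Near-identical transcripts were found by aligning the M21 transcripts with each other.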

Additional observations from a re-analysis of the deposited data

Results flagged for a closer look

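The change from the first to the second dose step differed in 3 genes by a test of the difference itself, the contrast of 10 µM against 5 µM with 5 µM against PBS (limma, adjusted over 12722 genes). Hif1a had a difference of 0.65 (adjusted p = 0.0346): most of its fall was present at 5 µM. P4ha1 had a difference of 0.58 (adjusted p = 0.0431) and Slc16a3 of 0.48 (adjusted p = 0.0415), each with its lowest samples at 5 µM. Over the alternatives the difference kept its sign, at 0.55 to 0.76 for Hif1a, 0.47 to 0.68 for P4ha1 and 0.42 to 0.57 for Slc16a3. Each call was lost without any 1 of the 6 samples, and no cause was tested.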

How the results depend on the processing

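None of the genes called in a comparison changed sign under the alternatives run. Of the genes not called, 5 passed in at least 1 alternative in each comparison of 2 groups, and 3 did for the dose steps. The count of called genes at 10 µM against PBS was 18 and, like the count over all genes, stayed within 1.5 times of its main value in every alternative. At 5 µM against PBS it was 13, and 6 with no expression filter or 6 to 13 with a sample left out. Without a PBS sample it was 7 (replicate 1 out) or 6 (replicate 2 out), and without a 5 µM sample 8 (replicate 1 out) or 7 (replicate 2 out). Between the doses it was 14, and 5 with no expression filter or 4 to 11 with a sample left out, the lowest without the 5 µM replicate 2. For the difference between dose steps it was 3, and 0 with no expression filter, 0 without the intensity trend, 5 with voom and 0 to 1 with a sample left out. With the replicate number as a block it was 1 there, beside 11 and 17 calls for 5 µM and 10 µM against PBS and 11 for 10 µM against 5 µM. Same-numbered samples did not deviate together (correlations -0.055 to 0.0373), and whether they share a mouse, a culture or a run is not stated. Over all genes, calls at 5 µM were 3881 and fell to 1897 without the PBS replicate 1, and calls between the doses were 2536 and fell to 869 without the 5 µM replicate 2. For the dose steps 682 genes were called, 1290 with voom, 354 with the block and 0 to 239 with a sample left out. Leaving out a sample leaves 1 in its group, assumed to vary like the others. Median-of-ratios scaling put the median of the 34 genes at 0.03 at 10 µM, against 0.09, and that of all genes at 0.0008, against 0.05. The difference between dose steps could not be fitted with only 2 groups. With 2 samples a group, differences of the size seen in Hk2, Pkm or H6pd lay near what could be called.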
